A study of Mus musculus with 29 samples.

Results

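The genes described here are 10 translation initiation factor genes of the mouse, taken by symbol from a table of 24448 genes. They are Eif1, Eif1a, Eif1ax, Eif2s1, Eif2s2, Eif4e, Eif4e1b, Eif4g1, Eif4a1 and Eif4a2, and all 10 had a row. They were read in 29 single libraries of the BDF1 strain made by Smart-seq2. Of these, 8 were 2-cell embryos made by nuclear transfer and cultured with 10 uM hydroxyurea (HU), which blocks ribonucleotide reductase and slows DNA replication. A further 9 were nuclear transfer embryos cultured without HU (control), and 12 were single cumulus cells, the somatic cell type that gave the donor nuclei. In all embryos, treated or not, a cumulus nucleus had been injected into an enucleated MII oocyte, and activation had lasted 6 h in 10 mM strontium with 2 mM EGTA and CB (not spelled out in the labels). Medium with HU gave way to fresh medium after 24 h, and embryos were collected 28 h after activation. An embryo library therefore holds RNA stored by the oocyte and RNA made from the donor genome together.

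Translation initiation brings a ribosome to the start codon of an mRNA. eIF4E binds the cap, eIF4G is the scaffold that joins eIF4E to the helicase eIF4A, and these 3 proteins form eIF4F. eIF2, made of an alpha (Eif2s1), a beta (Eif2s2) and a gamma subunit, carries the initiator tRNA, while eIF1 and eIF1A hold the small ribosomal subunit open as it scans. The early mouse embryo runs first on stored maternal mRNA, and its own genome is activated at the 2-cell stage. Eif1a is widely used as a marker of that activation, and Eif4e1b encodes a cap-binding protein of oocytes.

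HU embryos held 2442541 to 3757492 gene counts, control embryos 1801261 to 3472116 and cumulus cells 317195 to 4051494. Rn45s, the 45S pre-rRNA, took 15.2% to 28.98% of gene counts in HU embryos, 16.2% to 32.5% in control embryos and 49.3% to 86.6% in cumulus cells. Levels below are gene counts scaled to a library total of 1e+06 (CPM) for one gene across libraries, and FPKM, which also divides by gene length, for one gene against another. Either is a share of the library, so that fewer transcripts and more of other RNA cannot be told apart. The 8 oocyte and embryo markers summed to 9327 to 24460 CPM in HU embryos, 13722 to 23151 CPM in control embryos and 4.27 to 225 CPM in cumulus cells, where Gdf9, Zp3, Oosp1, Tcl1 and Zfp352 were at 0. The 9 cumulus and granulosa markers summed to 2.58 to 21.9 CPM in HU embryos, 7.32 to 30.5 CPM in control embryos and 17.8 to 1379 CPM in cumulus cells. Cumulus cell 2 stood apart. It had the highest Rn45s share (86.6%), 6 of these 9 markers at 0 (Fshr, Amh, Inha, Inhba, Has2 and Ptx3) and 4 immune markers summing to 149 CPM, against 0 to 60.7 CPM in the other 11 cells. Its 4 theca and stroma markers summed to 3.56 CPM, against 0 in the other 11. Bmp15 and Nlrp5 had counts in cell 2 and none in the other 11, though its 8 oocyte and embryo markers summed to only 4.27 CPM, the lowest of the cells. Ratios to cells are therefore also given without cell 2. Eif2s3y, the Y-linked eIF2 gamma gene, had 0 counts in all 29 libraries, and the X-linked Eif2s3x had counts in 26.

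The promoters of 3 eIF4F genes are shown because Eif4a2 and Eif4g1 had the highest fold changes of the 10 genes in the HU comparison below, and Eif4a1 is the other helicase gene. Each line holds RefSeq sequence on GRCm38.p6, read 5′ to 3′ on the gene's strand, starting 250 bases before the RefSeq start site and ending before the first base that GENCODE M21 annotates as exon. Capitals mark the E-box motif CACGTG.
Eif4g1 (chr16:20672477-20672722, plus strand): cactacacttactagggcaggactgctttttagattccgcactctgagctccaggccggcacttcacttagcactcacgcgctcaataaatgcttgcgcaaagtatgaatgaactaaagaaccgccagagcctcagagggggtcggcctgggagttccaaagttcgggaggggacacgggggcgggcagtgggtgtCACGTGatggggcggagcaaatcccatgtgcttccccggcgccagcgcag
Eif4a1 (chr11:69672424-69672673, minus strand): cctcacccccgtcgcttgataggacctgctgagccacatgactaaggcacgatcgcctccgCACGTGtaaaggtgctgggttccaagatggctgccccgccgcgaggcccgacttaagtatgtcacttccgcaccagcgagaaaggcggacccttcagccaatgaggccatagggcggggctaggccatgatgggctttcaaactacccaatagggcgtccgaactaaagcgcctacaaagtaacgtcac
Eif4a2 (chr16:23107218-23107443, plus strand): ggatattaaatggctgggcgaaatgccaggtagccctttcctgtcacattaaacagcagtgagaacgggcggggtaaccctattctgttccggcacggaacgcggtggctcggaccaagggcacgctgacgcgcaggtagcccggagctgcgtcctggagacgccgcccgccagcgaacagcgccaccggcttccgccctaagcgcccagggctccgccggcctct
The E-box lay 54 bases before the RefSeq start site of Eif4g1 and 189 bases before that of Eif4a1, and the Eif4a2 window held none. That Eif4g1 start site, at 20672727, lies inside the gene, which starts at 20668313 in GENCODE M21. The bases before 20668313 were not searched. Of the 10 genes, 8 had windows in the RefSeq table, and Eif1a and Eif4e1b are named only. In 7 genes the window held bases outside exons (186 to 250 bases). CACGTG, searched on both strands, was in 2 of these 7, CCGGAAG (the core of ETS factor sites) in 1 and TATAAA in 0. Over all 32851 RefSeq windows of 250 bases, CACGTG was in 6.02%, CCGGAAG in 6.91% and TATAAA in 12.4%. A match of letters does not show that a factor binds.

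The ranking of the 10 genes by FPKM was led in embryos by Eif1, whose product guards start codon choice. Eif1 had 357, 631 and 1128 FPKM (lowest, median, highest) in HU embryos, and 533, 675 and 917 FPKM in control embryos. It stood above the next gene in 8 of 8 HU and 9 of 9 control embryos. Next in control embryos came Eif4e1b (median 158 FPKM), Eif4e (118 FPKM) and Eif4a1 (97.2 FPKM), and neighbours in that order differed by less than their spread. The log2 difference was 0.30 ± 0.52 for Eif4e1b over Eif4e and 0.13 ± 0.18 for Eif4e over Eif4a1 (SD, n = 9). In HU embryos Eif4a1 (132 FPKM) came before Eif4e (118 FPKM) and Eif4e1b (95.2 FPKM), again with differences smaller than the SD. Below a step of 0.96 ± 0.31 on the log2 scale from Eif4a1 to Eif2s2 in control embryos (SD, n = 9), 5 genes lay close together. Eif2s2, Eif1ax, Eif4a2 and Eif2s1 had medians of 61.5, 42.0, 40.0 and 38.7 FPKM there, with Eif4g1 just after, and no step between neighbours exceeded its SD. Eif1a had the lowest median in both groups, at 15.2 FPKM in HU and 15.0 FPKM in control embryos.

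**Figure D1:**
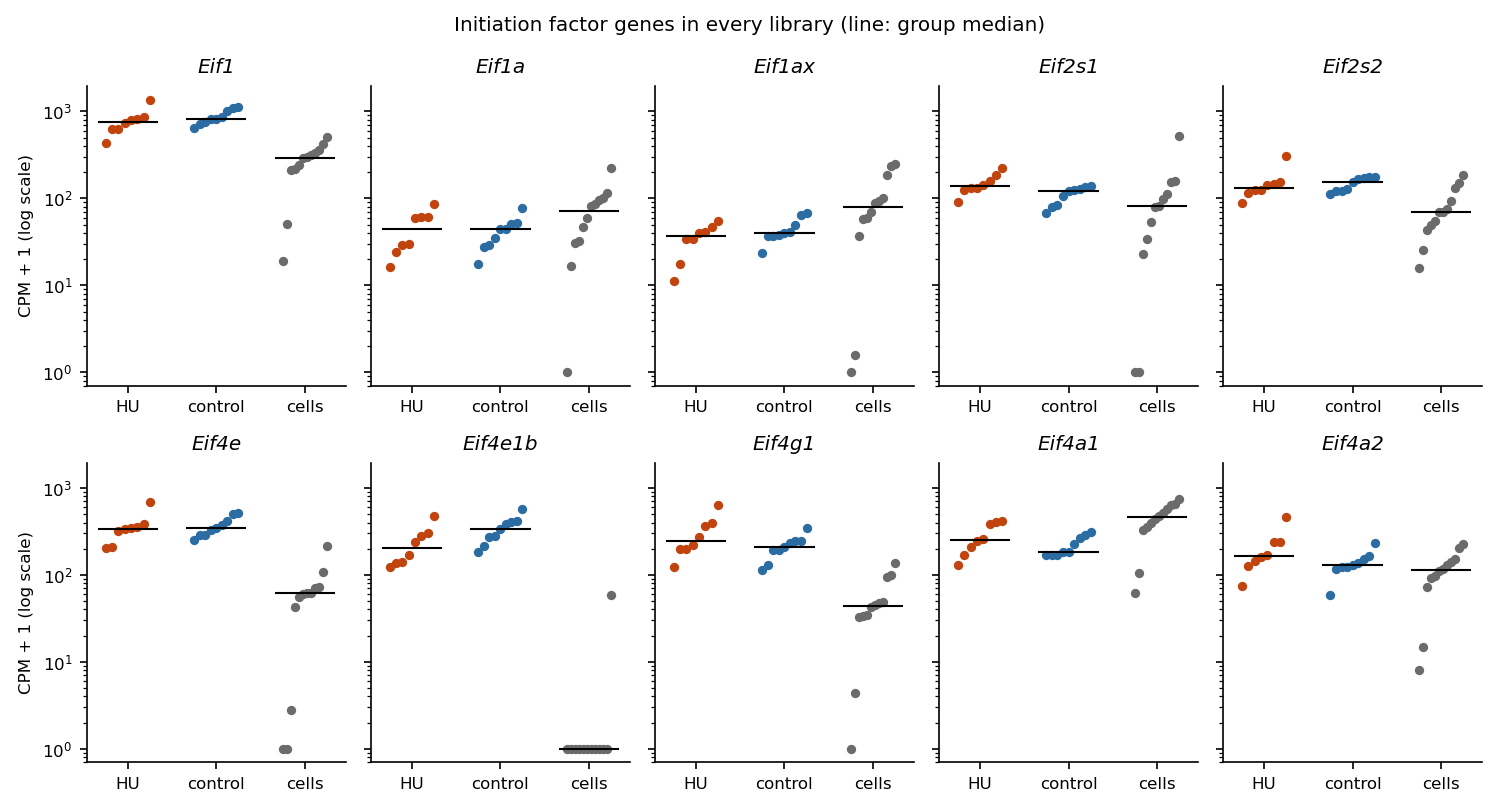
CPM + 1 on a log axis of the 10 genes in each HU embryo (n = 8), control embryo (n = 9) and cumulus cell (n = 12), with points sorted by value and a line at the group median. HU and control embryos overlap for every gene, while 11 of 12 cells are at 0 for Eif4e1b.

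HU embryos were set against control embryos to see whether these mRNAs differ after culture with HU. In edgeR's quasi-likelihood test over 11476 genes, 0 of the 10 genes passed an adjusted p of 0.05, as did 0 genes in all (percent called 0). DESeq2 called 0 of the 10 and 3 of all genes. At an unadjusted p under 0.05 stood 3 of 10 genes, Eif4a2, Eif4g1 and Eif2s1, all higher in HU, against 5.85% of all genes (3.81% counting only those higher). That count of 3 was 0 without any one of HU embryos 5 and 7 or of control embryos 1, 4 and 7, and 0 with all 3 groups in the fit. By library size alone, and with a replicate block, it was 1 higher and 1 lower. Fold changes were above 0 for 7 of 10 genes and 53.6% of all genes, and the median log2 fold change was 0.12, against 0.04 over all genes. With spike-in (ERCC) scaling the median of all genes moved to 0.19 and that of the 10 genes to 0.17.

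Among scanning factors, Eif1a had 15.2, 43.8 and 84.1 CPM in HU embryos (lowest, median, highest), and 16.6, 43.1 and 75.5 CPM in control embryos. HU embryo 2 was the highest, and the groups overlapped over almost their whole range. The log2 fold change was 0.16 ± 0.33 (SE), and -0.01 without HU embryo 2 (edgeR adjusted p 0.954 with it and 0.999 without). Its X-linked counterpart Eif1ax had 10.2, 36.2 and 53.2 CPM in HU embryos, against 22.5, 38.9 and 67.8 CPM in control embryos (log2 fold change -0.30 ± 0.28, SE). HU embryo 2, highest for Eif1a, was lowest for Eif1ax. Eif1 had 433, 765 and 1365 CPM in HU embryos, against 645, 818 and 1111 CPM in control embryos. HU embryos spread below and above the controls, with 3 of 8 under the lowest control and 1 over the highest.

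The eIF2 subunits gave unlike values. Eif2s1, the subunit that stress kinases phosphorylate to hold back translation, had 89.7, 137 and 221 CPM in HU embryos, against 66.9, 122 and 138 CPM in control embryos. Of 8 HU embryos, 4 stood above the highest control and 7 above the control median. The log2 fold change was 0.47 ± 0.21 (SE; unadjusted p = 0.0323, edgeR adjusted p = 0.829). Eif2s2 had 87.5, 132 and 308 CPM in HU embryos and 111, 154 and 177 CPM in control embryos. Its highest value, in HU embryo 4, lay far from the rest, and only 2 of 8 HU embryos stood above the control median. The log2 fold change was 0.07 ± 0.22 (SE), and -0.19 without HU embryo 4.

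Both cap-binding genes were abundant in embryos. Eif4e had 202, 340 and 686 CPM in HU embryos, against 252, 341 and 519 CPM in control embryos, so that the medians nearly coincided. Its log2 fold change was 0.01 ± 0.22 (SE), and below 0 in 6 of 7 other fits of the whole table. Eif4e1b, the oocyte form, had 121, 201 and 468 CPM in HU embryos, against 180, 335 and 575 CPM in control embryos. HU embryos 2, 3, 5 and 7 lay below the lowest control, and only HU embryo 4 lay above the control median. The log2 fold change was -0.51 ± 0.27 (SE; unadjusted p = 0.0740, edgeR adjusted p = 0.835), and it lay between -0.76 (without HU embryo 4) and -0.37 when any one embryo was left out.

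Of the scaffold and helicase genes, Eif4a2 and Eif4g1 had the highest fold changes of the 10. Eif4g1 had 123, 246 and 640 CPM in HU embryos, against 113, 207 and 343 CPM in control embryos. HU embryos 3, 5 and 7 stood above every control and the other 5 within the control range. The log2 fold change was 0.56 ± 0.25 (SE; unadjusted p = 0.0389, edgeR adjusted p = 0.829), and 0.34 without HU embryo 5, the lowest value when any one embryo was left out. Eif4a2 had 72.7, 162 and 466 CPM in HU embryos, against 57.6, 128 and 232 CPM in control embryos. HU embryo 5 was again highest, and HU embryos 2, 5 and 7 stood above every control. The log2 fold change was 0.59 ± 0.27 (SE; unadjusted p = 0.0383, edgeR adjusted p = 0.829), and 0.33 without HU embryo 5, the lowest value when any one embryo was left out. Eif4a1, the main helicase gene of growing cells, had 130, 249 and 414 CPM in HU embryos, against 169, 183 and 313 CPM in control embryos (log2 fold change 0.39 ± 0.24, SE). HU values again went past both ends of the control range, with 3 of 8 above and 2 of 8 below it.

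**Figure D2:**
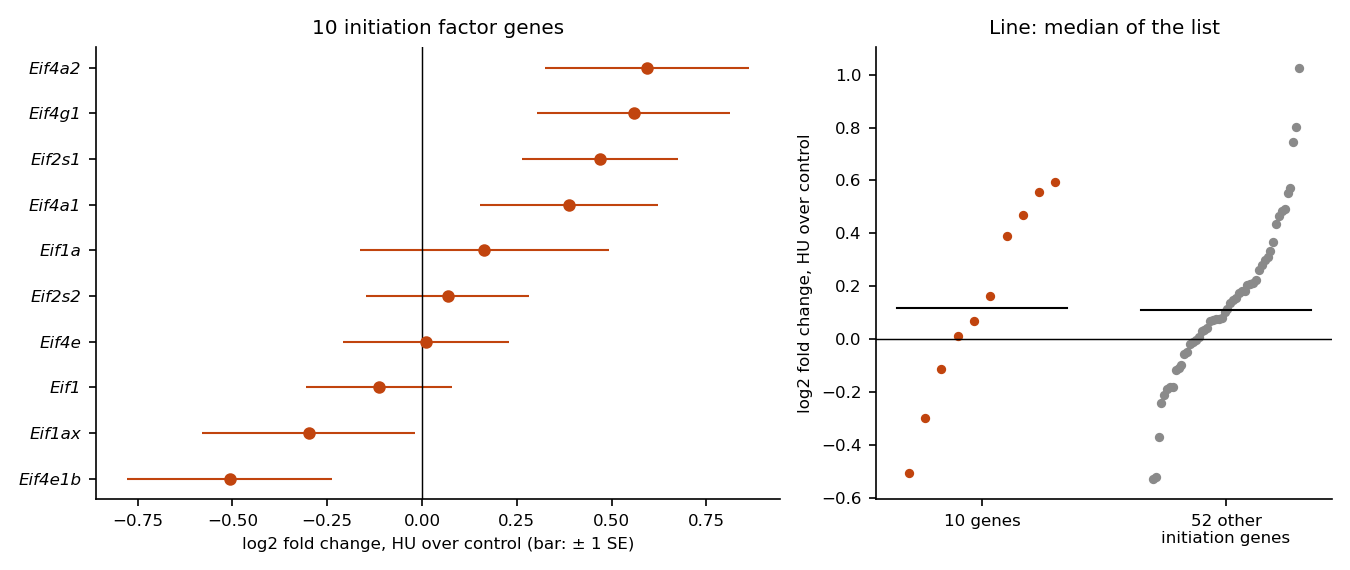
Left, log2 fold change of HU over control embryos with ± 1 SE for the 10 genes. Right, the same fold changes for the 10 genes and the 52 other initiation genes tested, each point a gene and each line a list median, at 0.12 and 0.11.

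Other initiation genes were taken from a list of 57, of which 52 passed the filter on low counts. None of the 52 passed the edgeR test in either direction at an adjusted p of 0.05, also with DESeq2, and 4 had an unadjusted p under 0.05, 3 higher and 1 lower. Their median log2 fold change was 0.11, with 36 above 0 (69.2%). Over all genes the median was 0.04, 53.6% were above 0 and 5.85% had an unadjusted edgeR p under 0.05. The smallest p of the 52 was that of Eif2a, an alternative initiator tRNA carrier. Eif2a averaged 135 ± 46.9 CPM in 8 HU and 78.1 ± 27.2 CPM in 9 control embryos (SD). Its log2 fold change was 0.80 ± 0.23 (SE; unadjusted p = 0.00169, edgeR adjusted p = 0.829). Of 8 HU embryos, 7 lay above the control median. Eif5, whose product triggers GTP hydrolysis by eIF2, stood at 837 ± 315 CPM in HU and 616 ± 89.0 CPM in control embryos (log2 fold change 0.48 ± 0.20, SE). Eif1b, a close relative of Eif1, stood at 50.2 ± 10.3 CPM in HU and 74.0 ± 29.0 CPM in control embryos (log2 fold change -0.52 ± 0.23, SE), with 8 of 8 HU embryos below the control median. By FPKM the most abundant of the list in control embryos were Eif5a, Eif6 and Eif5. Eif5a, which helps ribosomes past stalling peptides, had 528 ± 153 FPKM in HU and 629 ± 73.1 FPKM in control embryos (SD). Eif6, which keeps ribosomal subunits apart, had 190 ± 91.8 FPKM in HU and 186 ± 82.4 FPKM in control embryos, and Eif5 had 211 ± 79.5 FPKM in HU and 155 ± 22.5 FPKM in control embryos.

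Levels spread more widely among HU than among control embryos. The SD of log2(CPM + 1) was larger in HU for all 10 genes, 1.02 times for Eif2s1 and up to 1.92 times for Eif2s2. Over all genes tested the median SD was 0.73 in HU and 0.65 in control embryos, and it was 0.51 in HU and 0.45 in control embryos for the 4173 genes within the 10 genes' range of control CPM. The difference in spread was not tested. The share of all genes with a larger SD in HU was not counted. The 10 genes were read in the same embryos, so they are not independent. Eif1a varied most in both groups, with an SD of 0.83 in HU and 0.62 in control embryos, while the least variable were Eif2s1 in HU (0.39) and Eif2s2 and Eif1 in control embryos (0.27 each). HU embryo 4 was highest of its group for 5 of the 10 genes (Eif1, Eif2s1, Eif2s2, Eif4e and Eif4e1b). It also had the fewest detected genes (12887) and the lowest Rn45s share of its group (15.2%), and the 5 highest values remained so with Rn45s left out. Control embryo 9, with the highest Rn45s share of its group (32.5%), was lowest for 6 of the 10 genes, and for 3 with Rn45s left out.

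In ratios between related genes within one library, differences in library size nearly cancel. Eif1a stood below Eif1ax per length in 7 of 8 HU and 9 of 9 control embryos, with a mean log2 ratio of FPKM + 1 of -1.21 ± 1.23 in HU and -1.69 ± 0.65 in control embryos (SD). The ratio of Eif2s1 to Eif2s2 was -0.29 ± 0.44 in HU and -0.76 ± 0.37 in control embryos. Of 8 HU embryos, 4 lay above the highest control, and the difference was 0.47 ± 0.20 (SE). Eif4e1b over Eif4e was -0.22 ± 0.62 in HU and 0.30 ± 0.52 in control embryos, a difference of -0.52 ± 0.28 (SE), with 3 of 8 HU embryos below the lowest control. Eif4a1 exceeded Eif4a2 in every embryo, with a mean log2 ratio of 1.28 ± 0.80 in HU and 1.46 ± 0.40 in control embryos. In 3 of 8 HU embryos that ratio lay below the lowest control. These differences carry no test.

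**Figure D3:**
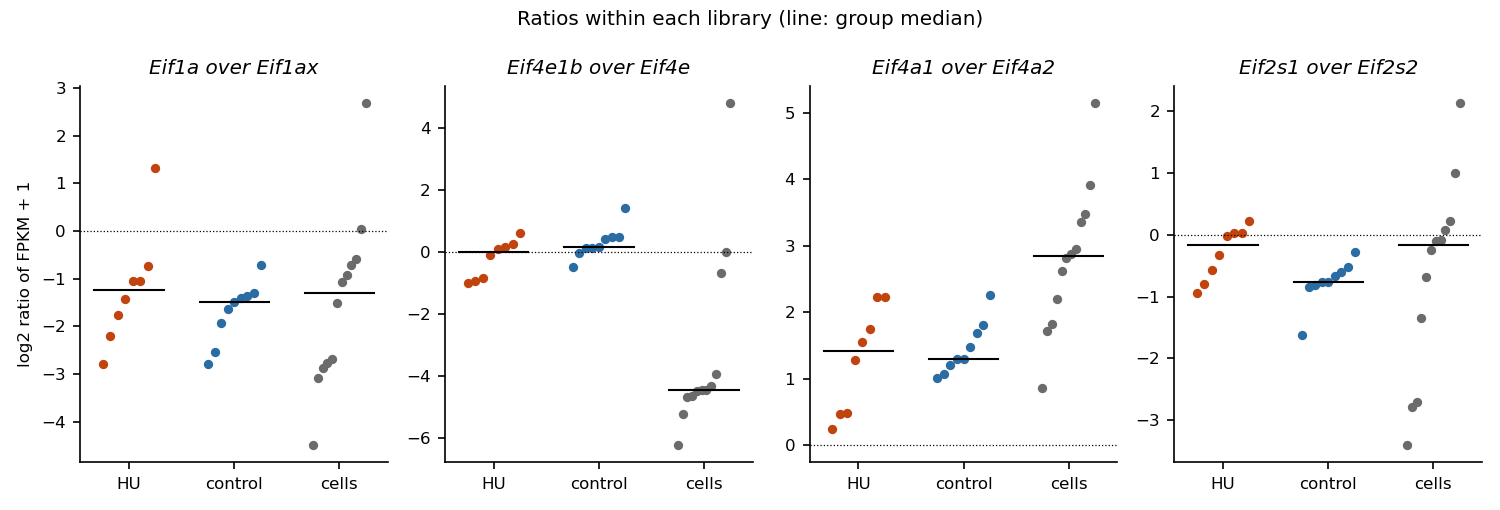
Log2 ratio of FPKM + 1 between related genes in each HU embryo (n = 8), control embryo (n = 9) and cumulus cell (n = 12), with a line at the group median and a dotted line at equal levels. Eif2s1 over Eif2s2 is below 0 in 9 of 9 control embryos and above 0 in 3 of 8 HU embryos.

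Single embryos were next compared with Zfp352, a gene switched on at the 2-cell stage, and with Spin1, an abundant maternal mRNA. Zfp352 had 8.78, 62.6 and 266 CPM in HU embryos (lowest, median, highest) and 7.29, 32.3 and 128 CPM in control embryos. On the log2 scale the embryos fell into 2 sets with a gap of 1.40. The high set held 6 embryos (HU 3, 4, 5 and 7 and control 3 and 5) and the low set 11. Over all 17 embryos, centred by group, r with Zfp352 ran from -0.12 (Eif4e1b) to 0.74 (Eif4g1). For Eif4g1, r was 0.80 in HU and 0.60 in control embryos. Its adjusted p was 0.0703 for r and 0.0749 for rho (0.67), both above the threshold (permutation test). Such pooled values mix the difference between the sets with any relation inside them. HU 3, 5 and 7, above every control for Eif4g1, were all in the high set. Within the sets, 0 of 20 relations with the 10 genes passed (smallest adjusted p = 0.563, permutation test). Tests within a set cannot see a difference between the sets, and each set is small. Each set held HU and control embryos, and values within a set were not centred by group. For Eif4g1, r was -0.27 in the high set (n = 6, exact permutation p = 0.608; rho -0.20, p = 0.714) and 0.29 in the low set (n = 11, permutation p = 0.402; rho 0.12, p = 0.732).

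Correlations were also computed across the 17 embryos, centred by group, and for Eif4e1b with Spin1 the adjusted p missed the threshold. Pearson's r was 0.59 (permutation p = 0.0298, adjusted p = 0.181) and Spearman's rho was 0.74 (permutation p = 0.0029, adjusted p = 0.0696), with r at 0.65 in HU and 0.46 in control embryos and 0.57 without HU 1 and HU 5. Eif4a2 gave an r of -0.56 with Spin1 (permutation p = 0.0537, adjusted p = 0.184) and a rho of -0.65 (permutation p = 0.0125, adjusted p = 0.0749). The value was -0.77 in HU and 0.12 in control embryos, and -0.40 without HU 1 and HU 5. Eif2s1 and Eif2s2 gave an r of 0.53 (permutation p = 0.0453, adjusted p = 0.181) and a rho of 0.64 (permutation p = 0.00945, adjusted p = 0.0749), with r at 0.33 without HU 2 and HU 4. Of the 24 relations in this family, which includes all 10 genes with Zfp352, 0 passed by either measure.

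**Figure D4:**
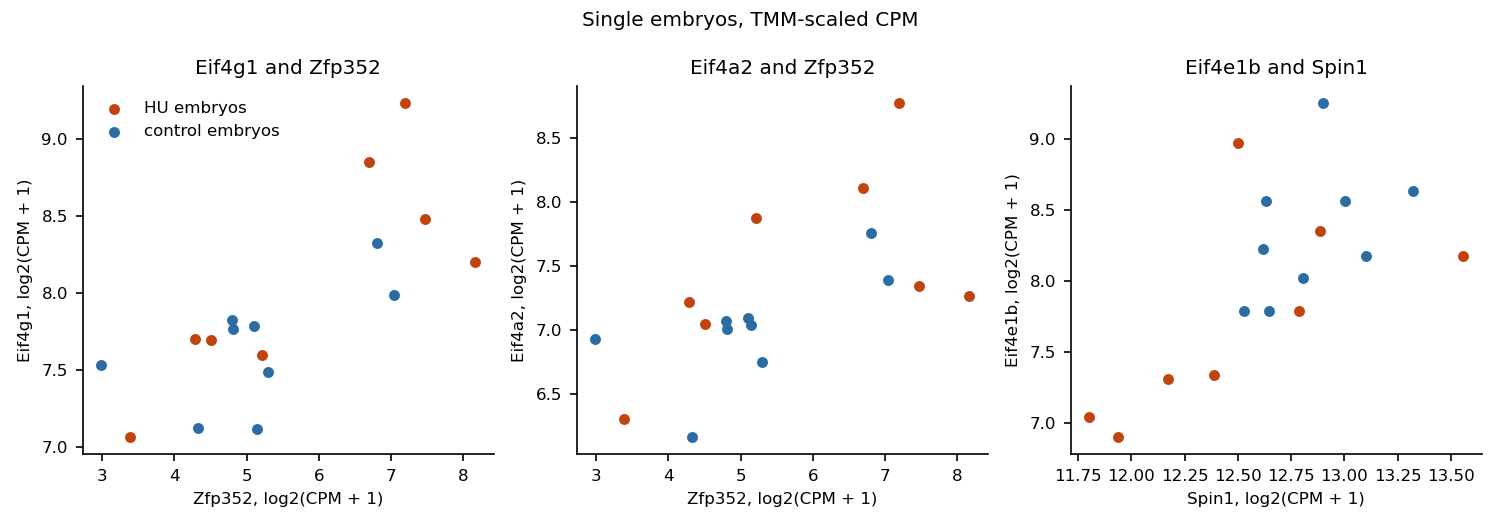
Log2(TMM-scaled CPM + 1) of Eif4g1 and Eif4a2 against Zfp352, and of Eif4e1b against Spin1, each point an embryo. The gap of 1.40 in Zfp352 between 11 low and 6 high embryos is visible. Points are not centred by group. For Eif4e1b with Spin1, centred by group, rho was 0.74 (permutation test, adjusted p = 0.0696) and r was 0.59 (adjusted p = 0.181). Neither passed the threshold.

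Over the same 17 embryos, genes among the most like Eif4e1b of 8571 compared were Mmp2 (rho 0.90), Fars2 (0.89), Lmo1 (0.88) and Plac8 (0.87). The genes most like Eif1a were Traf6 and Afg3l2 (rho 0.73 each), Impad1 (0.73), Fam72a and Spryd4 (0.71 each). These values are the highest of many and describe these embryos only.

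The comparison with cumulus cells shows which of these mRNAs set the reconstructed embryo apart from the donor cell type. No animal or culture of origin is given for the cells, so the 12 count as 1 sample, their counts were summed, and no test was run. Eif4e1b and Eif4e were past 4-fold higher in control embryos, and 0 of the 10 genes were past 4-fold lower, against 37.5% higher and 9.31% lower of 10051 genes. With Rn45s left out of library sizes, Eif4e1b alone was past 4-fold, against 26% higher and 18.3% lower of 11284 genes. Without cell 2 the counts were again 2 higher and 0 lower, against 37.3% higher and 9.82% lower of 10076 genes. That change of scale moved the median log2 ratio of all genes to 0.21 (1.25 with all counts) and that of the 10 genes to -0.31 (0.61 with all counts), so ratios are given on both scales.

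Eif4e1b averaged 341 ± 121 CPM in control embryos (SD, n = 9), against 3.33 CPM in the summed cells (exact 95% Poisson interval 2.64 to 4.14). All 80 counts in cells came from cumulus cell 2, the cell that stood apart, and the other 11 had 0. The log2 ratio was 6.31, or 5.58 with Rn45s left out, and 8.42 without cell 2. A floor of 3 counts over those 11 cells is 0.132 CPM, which puts control embryos at least 2576-fold higher, or at least 1401-fold higher with Rn45s left out. Eif4e averaged 367 ± 94.0 CPM in control embryos, against 66.7 CPM in the cells (63.4 to 70.0), a log2 ratio of 2.44, or 1.52 with Rn45s left out. In single cells Eif4e had 0, 60.5 and 216 CPM with all counts (lowest, median, highest), below the lowest control embryo at 252 CPM. That separation does not hold with Rn45s left out. Cell 4, the highest, had 55.0% of its gene counts in Rn45s, against 16.2% to 32.5% in control embryos. Eif4g1 stood just short of 4-fold, at 211 ± 68.3 CPM in control embryos and 52.7 CPM in the cells (49.9 to 55.7), a log2 ratio of 1.98, or 1.06 with Rn45s left out. It went past 4-fold without any one of cells 1, 4 and 8 or of control embryos 1 and 9. Eif1 averaged 869 ± 165 CPM in control embryos, against 289 CPM in the cells (282 to 295), a log2 ratio of 1.59, or 0.66 with Rn45s left out.

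Both eIF1A genes and Eif4a1 had ratios below 0 on either scale. Eif1a averaged 40.9 ± 17.3 CPM in control embryos (SD, n = 9) and 86.6 CPM in the summed cells (82.9 to 90.4), a log2 ratio of -1.06, or -1.99 with Rn45s left out. In the cells it ranged from 0 in cell 11 to 224 CPM in cell 8. Eif1ax averaged 43.3 ± 14.4 CPM in control embryos and 90.3 CPM in the cells (86.5 to 94.2), with ratios of -1.04 and -1.98. Eif4a1 averaged 219 ± 57.4 CPM in control embryos and 419 CPM in the cells (411 to 427), with ratios of -0.93 and -1.87. By FPKM Eif4a1 shared the top of the ranking in cells with Eif1, at medians of 243 FPKM for Eif4a1 and 241 FPKM for Eif1 (255 and 244 FPKM without cell 2). Eif2s1, Eif2s2 and Eif4a2 had log2 ratios of 0.37, 0.84 and 0.20 with all counts and of -0.54, -0.08 and -0.73 with Rn45s left out, so their direction depends on the scale. Without cumulus cell 2 the ratios of the 9 genes other than Eif4e1b shifted by less than 0.1, for example to 2.36 for Eif4e and -1.14 for Eif1a.

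**Figure D5:**
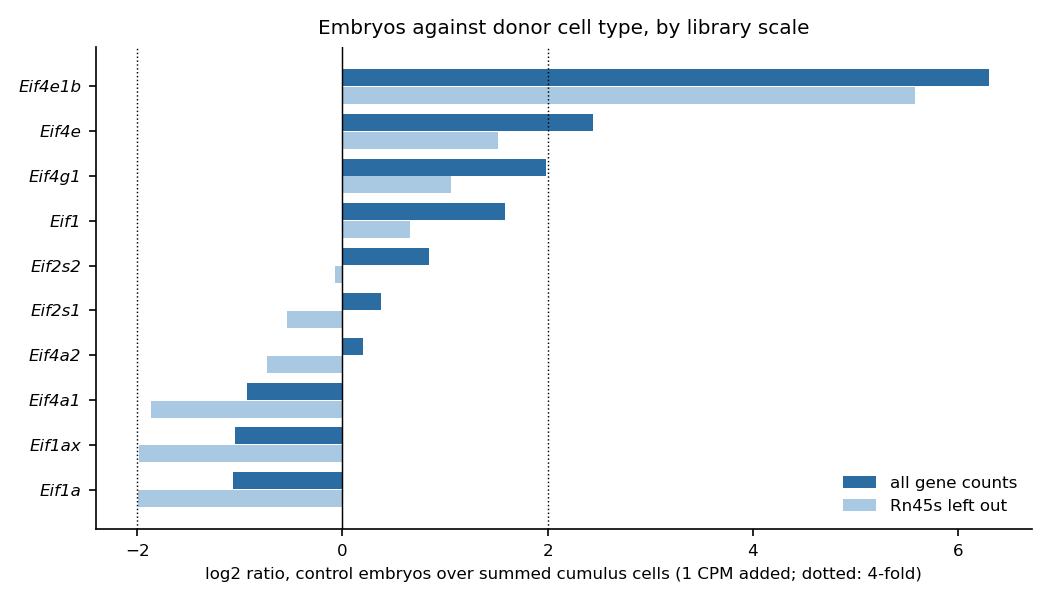
Log2 ratio of control embryos (mean CPM, n = 9) over 12 summed cumulus cells with 1 CPM added, for all gene counts and with Rn45s left out; dotted lines mark 4-fold. Eif4e1b is past 4-fold on both scales, and Eif2s1, Eif2s2 and Eif4a2 change sign between them.

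Of the other initiation genes, 52 reached 10 CPM in either group. Of these, 11 were past 4-fold higher in control embryos and 1 lower, against 37.5% higher and 9.31% lower over all genes. With Rn45s left out they were 8 and 9 of 53, against 26% and 18.3% over all genes. Without cell 2 they were 11 and 2 of 52, against 37.3% and 9.82%, and Eif4h at -2.08 joined Eif3l. The 4 genes of the list with the highest and the 4 with the lowest log2 ratio, with 1 CPM added, are given here. Paip2b, an inhibitor of poly(A)-binding protein, averaged 80.4 ± 15.7 CPM in control embryos (SD, n = 9) and 0.249 CPM in the cells (0.0915 to 0.543), a log2 ratio of 6.03 (6.01 with Rn45s left out and 6.06 without cell 2). Eif4e3, a cap-binding relative of eIF4E, averaged 238 ± 42.6 CPM in control embryos and 3.08 CPM in the cells (2.42 to 3.86), a log2 ratio of 5.88 (5.17 with Rn45s left out and 5.81 without cell 2). Cpeb1, which controls the poly(A) tails of stored oocyte mRNAs, averaged 49.8 ± 13.4 CPM in control embryos and had 0 counts in the cells. With a floor of 3 counts over the 12 cells, control embryos were at least 400-fold higher, or at least 209-fold higher with Rn45s left out. Pabpc1l, a relative of the poly(A)-binding protein gene chosen after its values were seen, also had 0 counts in the cells. Control embryos, at 37.6 ± 12.1 CPM, were at least 302-fold higher, or at least 158-fold higher with Rn45s left out, so the order of the highest ratios depends on the 1 CPM added. Paip1, a partner of poly(A)-binding protein, averaged 616 ± 99.8 CPM in control embryos and 14.8 CPM in the cells (13.3 to 16.4), a log2 ratio of 5.29 (4.42 with Rn45s left out and 5.21 without cell 2). Other cap and poly(A) genes lay the other way, such as Eif4ebp1 at -1.18 and Pabpc1 at -0.92, both also chosen after their values were seen (-2.11 and -1.84 with Rn45s left out). HU embryos had 82.9, 230, 42.9 and 587 CPM of Paip2b, Eif4e3, Cpeb1 and Paip1 on average.

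eIF3 is the large scaffold on the small ribosomal subunit. Of 12 eIF3 genes with enough counts, 10 had a lower level in control embryos than in cells, and all 12 with Rn45s left out (median log2 ratio -1.13, or -2.06 with Rn45s left out). Over all genes the share lower in control embryos was 29.5%, or 46.7% with Rn45s left out, and the median ratio was 1.25 or 0.21. Past 4-fold lower was 1 eIF3 gene, or 6 with Rn45s left out. Without cell 2 the eIF3 counts were 10 lower and 1 past 4-fold, with a median of -1.21, against 30.6% lower over all genes. Eif3l averaged 38.5 ± 18.2 CPM in control embryos and 258 CPM in the cells (252 to 264), a log2 ratio of -2.71 (-3.65 with Rn45s left out and -2.80 without cell 2). Eif3e averaged 27.9 ± 9.77 CPM in control embryos and 98.1 CPM in the cells (94.1 to 102), a log2 ratio of -1.78 (-2.70 and -1.85 on those settings). Eif3g stood at 31.2 ± 21.5 CPM in control embryos and 108 CPM in the cells (103 to 112), a log2 ratio of -1.75 (-2.66 and -1.83). Eif4h, a cofactor of the helicase, averaged 54.2 ± 23.5 CPM in control embryos and 218 CPM in the cells (212 to 224), a log2 ratio of -1.99 (-2.89 with Rn45s left out and -2.08 without cell 2).

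Positions come from GENCODE M21 on GRCm38, and all 10 genes are protein-coding. Eif1 lies on chromosome 11 (100319885 to 100322096, plus strand), as does Eif4a1 (69666936 to 69672423, minus strand). Eif4g1 (20668313 to 20692884) and Eif4a2 (23107444 to 23114136) lie on chromosome 16, plus strand. Eif4e lies on chromosome 3 (138526179 to 138559696, plus strand) and Eif4e1b on chromosome 13 (54783998 to 54788459, plus strand). The eIF1A genes are on chromosome 18 (Eif1a, 46597701 to 46616456, plus strand) and X (Eif1ax, 159372178 to 159389928, plus strand). Eif2s1 is on chromosome 12 (78861819 to 78887010, plus strand) and Eif2s2 on chromosome 2 (154871410 to 154892935, minus strand). Smart-seq2 does not mark strand, so counts of Eif4a2 and Rfc4 and of Eif2s2 and the agouti gene, which overlap on opposite strands, cannot be told apart where they overlap. Small nucleolar RNA genes lie within Eif4a1, Eif4a2 and Eif4g1, and RefSeq lists 3 Eif1 pseudogenes and 1 Eif4a pseudogene that have no row in the count table.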

How the data were processed

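The authors deposited raw counts per gene (24540 rows, of which 92 are ERCC spike-ins) and FPKM values for the same 29 libraries. Per the submitters' processing notes the build was mm10 and the tools were STAR 2.7.3a, FastQC and R 4.0.2. Counter, annotation and strand setting: not given in the sources used here. In each of the 18588 genes that could be checked, the deposited FPKM equalled counts over library size and 1 length per gene (tolerance 0.001). All columns matched a sample by title.

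Library sizes exclude ERCC rows. HU and control embryos were compared with edgeR 4.0.16 (R 4.3.3; quasi-likelihood F test, TMM, filterByExpr, no covariate, 17 embryos), with Benjamini-Hochberg adjustment over all 11476 genes tested and a threshold of 0.05. SEs come from the F statistic. The fit was also run on simulated data. The share of planted changes that it recovered is not given here, so 0 calls do not exclude small changes. CPM printed for single genes use library size. Correlations over all 17 embryos use TMM-scaled CPM (1 CPM added), centred by group, and 100000 permutations within groups. Correlations within the Zfp352 sets use the same CPM without centring. Their permutations ran over a whole set, HU and control embryos together, with all orders taken in the high set. Cumulus cells were summed, with exact Poisson intervals at 95%, genes at 10 CPM or more in either group and 1 CPM added. Reads had no molecular identifiers: intervals and floors cover counting error only. Labels do not say which embryos shared a day or female, so p-values reflect only how far these embryos spread, which may be technical.

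Titles number HU and control embryos alike. Same-numbered embryos deviated together (correlation over 0.1) in 1 of 8 pairs, with correlations from -0.10 to 0.19. The numbers thus gave no sign of pairing, though a weak effect shared by a pair could go unseen. Alternatives were DESeq2 1.42.0, other scalings, no filter, all 3 groups, a replicate block and leaving out single libraries. The genes and lists were chosen with earlier results of these data known. Named genes were all 10 genes; of the other list, the 3 with the smallest p, the 4 with the largest ratio each way to cells and the 3 most abundant; and the 5 most like Eif1a and Eif4e1b, of which 1 is not reported here.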

Additional observations from a re-analysis of the deposited data

Results flagged for a closer look

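Of 20 sets of embryo values (10 genes in 2 groups), 4 were flagged by Dixon's criterion at 95%. It flags a sample whose distance to its nearest neighbour is large for the group's whole range. Chance flags about 1 in 20 only for normally distributed values in independent sets. Here the criterion was run on CPM without a log, and the 10 genes share embryos. The count of 4 therefore cannot be set against that rate. HU embryo 4 was the highest for Eif1 at 1365 CPM, with the next HU embryo at 863 CPM. It was also highest for Eif2s2, at 308 CPM with the next at 155 CPM, and for Eif4e, at 686 CPM with the next at 386 CPM. HU embryo 5 was the highest for Eif4a2 at 466 CPM, with the next at 239 CPM. The part of depth, detected genes or Rn45s share in these values was not tested.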

How the results depend on the processing

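No alternative called any of the 10 genes or of the other initiation genes for HU against control. Over all genes, 3 were called by DESeq2, and leaving out any one embryo gave between 0 and 1 call (1 without HU 8). Of the 10 genes, 7 kept the direction of their log2 fold change in all 7 other fits and all 17 that leave out an embryo. Eif4e (0.01) was -0.0022 with DESeq2, -0.047 by library size, -0.0099 with Rn45s left out, -0.0092 without a filter, -0.013 with all 3 groups and -0.099 with the replicate block, and ranged from -0.21 to 0.10 over embryos left out. Eif2s2 was -0.026 with the replicate block and ranged from -0.19 to 0.16, and Eif1a ranged from -0.013 to 0.32. At an unadjusted p under 0.05, 0 to 4 of the 10 genes were higher over embryos left out. With the replicate block, 0 genes passed. The titles' numbers gave no sign of pairing (1 of 8 HU embryos correlated best with its own number), which does not exclude a weak one. The count of genes past 4-fold higher in control embryos than in cells was 1 with Rn45s left out and 2 to 3 over libraries left out, and the count lower was 0 throughout. Without cells 2 and 11 (chosen after seeing the data) it was 2. When any one embryo was left out, the HU minus control difference in the log2 ratio of Eif1a over Eif1ax ranged from 0.11 to 0.70. For Eif4e1b over Eif4e it ranged from -0.64 to -0.38, and for Eif4a1 over Eif4a2 from -0.31 to -0.03. For the eIF2 subunits, Eif2s1 over Eif2s2, it ranged from 0.36 to 0.56. Across the 2 Zfp352 sets together, where the gap between the sets enters, r of Eif1a with Zfp352 was 0.0065, and -0.014 with 10 CPM added. Other genes had larger values on that measure, up to 0.74 for Eif4g1. The causes were not tested. Depth limits what a 0 in a single cell shows, with 317195 to 4051494 gene counts per cell.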
